A study of Mus musculus with 185 samples.

Results

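The genes of transforming growth factor-beta (TGF-beta) signalling and activation were followed in single Langerhans cells (LCs) of the mouse epidermis. The 10 genes were chosen by name, as the ligand Tgfb1, its receptors Tgfbr1 and Tgfbr2, the signal-carrying Smad2, Smad3 and Smad4, the inhibitory Smad7, the integrin subunits Itgav and Itgb8, and the bone morphogenetic protein (BMP) receptor Bmpr1a. They are 10 of the 45661 genes listed, and their own values played no role in the choice of cells. The cells came from bone marrow chimeras in which irradiated B6 hosts, CD45.1 and carrying Cd207DTR (the diphtheria toxin receptor in the Cd207 locus), had been given CD45.2 wild-type marrow. All hosts had then received a low dose of diphtheria toxin, 5 ng per gram of body weight, and the epidermis was taken 2 months later. LCs of host origin (CD45.1, sort label E, Cd207DTR allele) are called eLCs, for embryonic LCs, and LCs of donor origin (CD45.2, sort label M, wild-type Cd207) are called moLCs, for monocyte-derived LCs. The hosts, and the eLCs with them, had been irradiated, whereas moLCs came from marrow given after the irradiation, and the toxin receptor was carried by eLCs alone, so that origin cannot be told apart from irradiation of the cells or from the toxin receptor. All hosts had received the toxin, and the ages of the mice are not given here.

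At most 5% of the reads fell on mitochondrial genes in 182 cells, which were kept, while 3 moLCs went over that limit and were not. The kept moLCs were 67 cells of plate 1 and 36 of plate 2, and the 79 eLCs were 29 cells of plate 1 and 50 of plate 2. A kept cell had between 432614 and 4525429 reads on genes, and the median moLC had a read of 4026 genes and the median eLC of 4488 genes. No animal was named for any cell, so each origin was 1 sample, no test could be made between origins, and all intervals given are 95% intervals of counting error only. Intervals of levels and ratios also treat each read as independent, although PCR copies count as reads, so they are too narrow. Each cell had a read of at least 1 of 8 LC markers. None of 5 fibroblast markers had a read, and 5 of 8 keratinocyte markers did, in 25 moLCs and 10 eLCs, with summed levels of 0 to 686 counts per 1000000 reads (CPM) per moLC and 0 to 95.3 CPM per eLC and with Krt1, Krt15 and Dsp at 0. Sfn was read in 13 moLCs and 3 eLCs, Krt14 in 11 and 3, Krt5 and Perp each in 3 and 1, and Krt10 in 3 and 2. Of 6 T cell markers, 4 had a read, in 14 moLCs and 13 eLCs (0 to 283 and 0 to 413 CPM), with Cd3e and Trdc at 0. Cd2 was read in 12 moLCs and 9 eLCs, Cd3g and Lck each in 1 and 1, and Cd3d in 0 and 2. Of 5 melanocyte markers, 1 had a read, in 2 moLCs and 1 eLC. Of 5 monocyte markers, 4 had a read, in 21 moLCs and 23 eLCs (0 to 4506 and 0 to 1046 CPM), nearly all of it Cd14, with Fcgr1 at 0. All 4 markers of dermal type 1 dendritic cells had a read, in 67 moLCs and 55 eLCs (0 to 1318 and 0 to 854 CPM), mostly of Irf8, while Xcr1 was read in 7 moLCs and 12 eLCs and Clec9a in 1 and 3. The part of these markers in the results was not tested.

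TGF-beta is made as a latent dimer that is held by its own propeptide and by an anchoring protein, and integrins that contain the alpha-v chain can release it. The freed ligand joins a type II and a type I receptor kinase, here the products of Tgfbr2 and Tgfbr1, and the type I receptor phosphorylates Smad2 and Smad3, which enter the nucleus together with Smad4. Smad7 is induced by the pathway and blocks the receptor. In the epidermis, TGF-beta is needed for LCs to form and to stay in place, LCs are themselves a source of the ligand, and BMP signalling through Bmpr1a has been linked to LC differentiation.

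A read of Tgfb1 was found in 146 of the 182 cells, or 80.2% (interval 73.7 to 85.7). Smad2 and Smad4 followed with 98 cells each, or 53.8%, then Tgfbr1 with 90 cells, or 49.5%, and Smad7 with 61 cells, or 33.5%. Itgav was read in 33 cells (18.1%) and Tgfbr2 in 32 cells (17.6%). Itgb8 was read in 4 cells (2.20%) and Bmpr1a in 3 cells (1.65%). Smad3 was read in 0 of 182 cells, which allows a share of up to 1.65% if 3 cells are taken as the limit (2.01% as the upper end of the exact interval used for the other genes), and 27840 of the 45661 listed genes likewise had no read in any kept cell. Thus 9 of the 10 genes had a read, and 5 of them (Tgfb1, Tgfbr1, Smad2, Smad4 and Smad7) were detected in no fewer than 25% of moLCs or of eLCs, the share asked for below. The share of cells with a read of each gene is plotted by origin and plate.

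**Figure D1:**
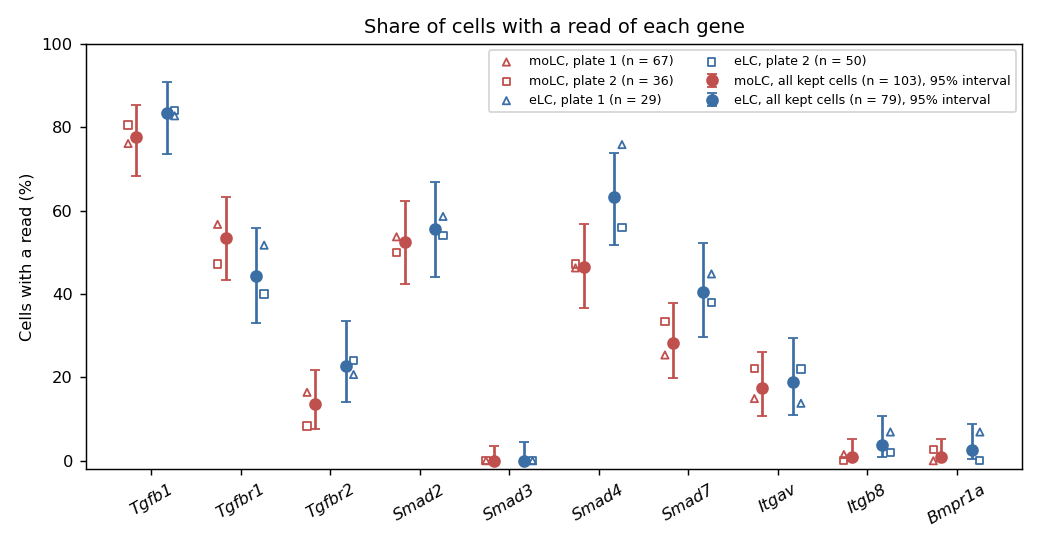
Share of cells with a read (percent, vertical axis) for each of the 10 genes. Filled points are all kept moLCs (red) and eLCs (blue, n = 79) with exact 95% intervals of counting error, triangles are plate 1 and squares are plate 2. Tgfb1 lies at 77.7% and 83.5%, Smad4 shows the widest gap (46.6% against 63.3%), and Smad3 is at 0 in both origins.

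Levels can be set side by side only per length, so the reads of each gene were divided by the kilobases (kb) of its exons. On that scale, over all 182 cells, Smad4 was highest with 14.5 CPM per kb, followed by Tgfb1 with 7.93, Smad2 with 6.97 and Tgfbr1 with 3.95 CPM per kb. The order continued with Tgfbr2 (1.57 CPM per kb), Smad7 (1.36), Itgav (0.958), Bmpr1a (0.159) and Itgb8 (0.0407). Neighbours in this order were set side by side by their range over the 4 groups of origin and plate. These groups are not replicates, so the range is a description and not an error of the order. Smad4 ran from 10.4 to 24.5 CPM per kb over these groups and Tgfb1 from 5.65 to 12.2, so that they overlapped, and Smad2 (5.83 to 7.74) lay within the range of Tgfb1. Tgfbr1, at 1.56 to 5.25 CPM per kb, stayed below the lowest group of Smad2. Tgfbr1, Tgfbr2 (0.576 to 2.28), Smad7 (0.767 to 2.68) and Itgav (0.404 to 1.22) each overlapped their neighbour, and so did Bmpr1a and Itgb8, which had groups at 0.

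Tgfb1 (ENSMUSG00000002603) lies on the plus strand at chr7:25687002-25705077 of GRCm38, and Smad3 (ENSMUSG00000032402) on the minus strand at chr9:63646767-63757994. The 250 bases before the start of the ligand gene, which was read in more cells than any other of the 10, and of the only gene of the 10 without a read are shown 5′ to 3′ on each gene's strand from RefSeq (GRCm38.p6), with every CpG in capitals, at chr7:25686752-25687001 and chr9:63757995-63758244.
Tgfb1: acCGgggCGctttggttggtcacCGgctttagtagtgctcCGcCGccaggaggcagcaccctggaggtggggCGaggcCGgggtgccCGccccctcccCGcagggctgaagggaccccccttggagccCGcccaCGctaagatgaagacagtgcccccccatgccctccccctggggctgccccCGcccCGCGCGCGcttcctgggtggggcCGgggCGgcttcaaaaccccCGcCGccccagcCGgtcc
Smad3: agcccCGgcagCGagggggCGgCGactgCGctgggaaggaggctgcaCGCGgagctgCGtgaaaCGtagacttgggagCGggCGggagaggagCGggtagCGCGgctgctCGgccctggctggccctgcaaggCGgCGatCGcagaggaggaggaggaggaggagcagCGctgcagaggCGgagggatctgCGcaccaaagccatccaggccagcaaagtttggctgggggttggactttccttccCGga
The Tgfb1 window held 21 CpG and the Smad3 window 22, against a median of 6 over all 32851 windows of this length, of which 83.7% held fewer than Tgfb1 and 85.2% fewer than Smad3. A window with many CpG was thus shared by the gene read in most cells and the gene read in none. A window of this kind, whatever its CpG count, was at hand for 7 of the 10 genes. Smad2, Smad4 and Smad7 had none and were not examined. Over the 7, CpG counts ran from 12 in Tgfbr2 and Itgb8 to 36 in Bmpr1a, itself read in only 3 cells. The letters CAGAC, the core of the site that Smad proteins bind, were searched on both strands and occurred 1 time in each of the Tgfbr2 and Itgb8 windows and in none of the other 5, while 42.2% of all windows held them.

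Differences between origins were read against all 6522 genes detected in no fewer than 25% of moLCs or of eLCs. A gene was called when, besides, its 2-fold or larger difference pointed one way in the pooled cells and on each plate alone, which 132 genes met (2.02%, with 0.813% higher in moLCs and 1.21% higher in eLCs). None of the 5 members that reached the share was called. In all cells together, 1 of the 5 (Tgfbr1, higher in moLCs) reached 2-fold, against 5.72% of the 6522 genes (2.09% higher in moLCs and 3.63% higher in eLCs). On plate 1 alone Tgfbr1 was the only one of the 5 to reach 2-fold (11.3% of the 6522 genes), and on plate 2 alone Smad7 was (11.4%). The median log2 ratio of the 5, moLC over eLC, was 0.00, and it was -0.10 over all 6522 genes. Within plate 1 the median of the 5 was -0.06 and within plate 2 it was 0.24, and only 1 of the 5 (Tgfbr1) had the same sign within both plates, against 54.3% of the 6522 genes.

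In moLCs, Tgfb1 ran from 0 CPM in the lowest cell to 24.9 in the median and 344 in the highest cell, and in eLCs from 0 to 20.7 and 316 CPM. The cells of both origins covered the same range. Summed over cells, the ligand stood at 40.02 CPM (interval 39.3 to 40.7) in moLCs, beside 39.9 CPM (39.1 to 40.7) in eLCs. The log2 ratio was 0.00 and stayed between -0.13 and 0.16 when each cell was left out in turn. The plates went opposite ways. On plate 1 moLCs had 28.5 and eLCs 35.6 CPM of Tgfb1 (log2 ratio -0.32), and on plate 2 they had 61.7 and 42.8 CPM (log2 ratio 0.53). The share of cells with a Tgfb1 read was 77.7% in moLCs and 83.5% in eLCs, with intervals that overlapped. Among cells with at least 2052512 reads, thinned to that number, it was 78.1% and 79.1%. The 7 moLCs and 12 eLCs with fewer reads were left out there, so the cells are not the same.

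Tgfbr1, the type I receptor (ENSMUSG00000007613, chr4:47353222-47414931, plus strand), had the highest moLC level relative to eLCs of the 5. Cells ran from 0 to a median of 4.51 and a highest value of 413 CPM in moLCs, and from 0 to a median of 0 and a highest value of 237 CPM in eLCs, so the origins overlapped widely. The summed level was 33.1 CPM for moLCs against 15.8 CPM for eLCs, which gave a log2 ratio of 1.07 (counting interval 1.01 to 1.12). Within plate 1 the ratio was 1.75 (34.3 against 10.2 CPM) and within plate 2 it was 0.65 (30.7 against 19.6 CPM), which kept it from being called. A single eLC of plate 2 held 936 of the eLC reads, or 27.2%, and without it the log2 ratio was 1.499, while the lowest value with any 1 cell left out was 0.89. The shares differed less than the level. The receptor was detected in 53.4% of moLCs (43.3 to 63.3) against 44.3% of eLCs (33.1 to 55.9), and in cells with a read the median was 29.9 CPM in moLCs and 12.6 CPM in eLCs.

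Tgfbr2, the type II receptor that binds the ligand first (ENSMUSG00000032440, chr9:116084293-116175360, minus strand), was read in 14 moLCs (13.6%) and 18 eLCs (22.8%). The median cell was at 0 in both origins, and the highest cells were at 154 and 192 CPM. Summed levels were 10.9 and 15.5 CPM (log2 ratio -0.51), with a log2 ratio of 0.38 on plate 1 and -1.98 on plate 2, where only 3 of 36 moLCs had a read. The value therefore rested on few cells. Without 1 eLC of plate 2 with 752 reads it was -0.17.

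The plot of levels in single cells shows that most of these genes were unread in many cells and well above 0 in the others.

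**Figure D2:**
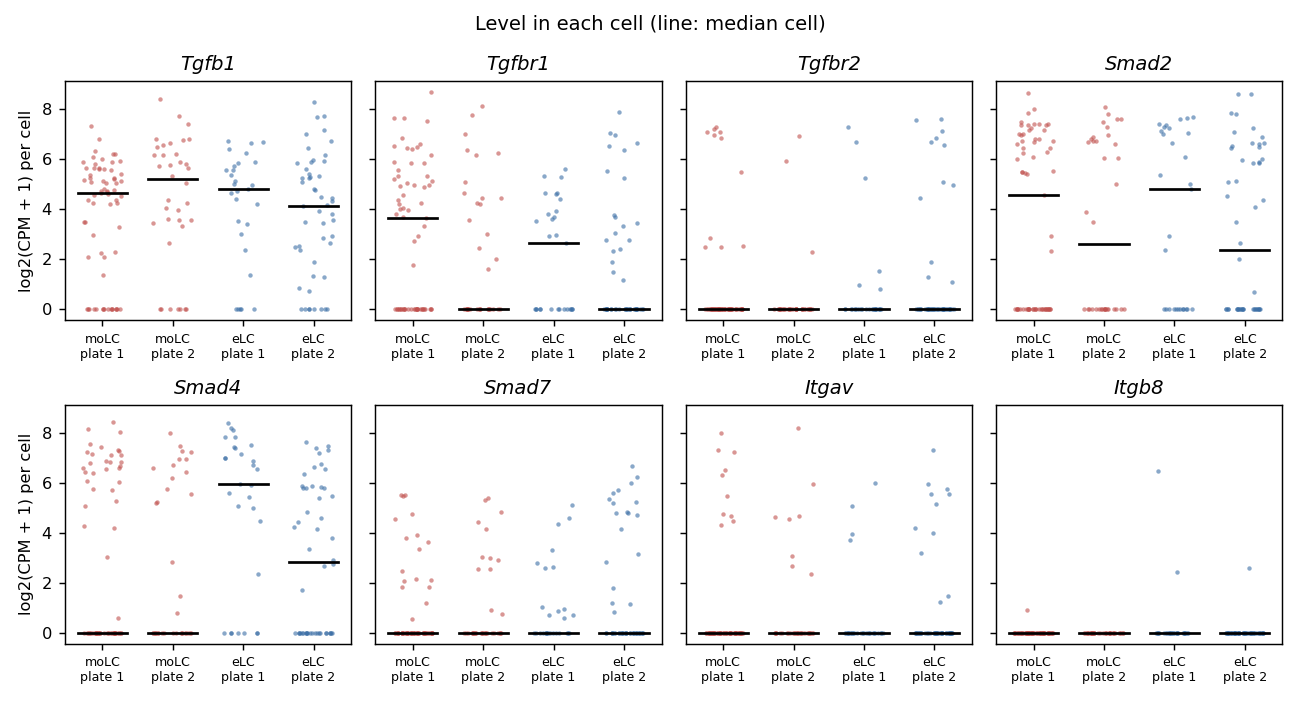
Level of 8 of the genes in each kept cell, as log2(CPM + 1) on the vertical axis, for moLCs (red) and eLCs (blue) of each plate; every point is a cell and the black line is the median cell. Cells without a read lie at 0, the median line is at 0 in all 4 groups for Tgfbr2, Smad7, Itgav and Itgb8, and the 4 groups overlap for each gene.

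Smad2, which the type I receptor phosphorylates (ENSMUSG00000024563, chr18:76241580-76310963, plus strand), had the smallest gap of the 5 between its ratios on the plates. It ran from 0 to a median of 10.1 and a highest value of 398 CPM over moLCs, and from 0 to 6.65 and 394 CPM over eLCs. The summed levels of 63.5 and 57.96 CPM gave a log2 ratio of 0.13, which was -0.06 on plate 1 and 0.24 on plate 2 and ranged from 0.04 to 0.24 with each cell left out. It was detected in 52.4% of moLCs and 55.7% of eLCs. Smad3, the other Smad of this kind, had no read in any of 4 groups, nor in the 3 cells that were not kept. The 3 reads that a count of 0 allows are worth 0.00579 CPM over all kept cells.

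Smad4, the partner shared by the TGF-beta and BMP branches (ENSMUSG00000024515, chr18:73639009-73703780, minus strand), had the largest difference in share among the 9 genes read. It had a read in 48 moLCs, or 46.6% (36.7 to 56.7), and in 50 eLCs, or 63.3% (51.7 to 73.9). The difference of -16.7 points kept its sign within plate 1 (46.3% against 75.9%) and within plate 2 (47.2% against 56%), and after thinning it stood at 45.8% against 62.7%. Over moLCs Smad4 ran from 0 to a median of 0 and a highest value of 342 CPM, and over eLCs from 0 to 21.3 and 337 CPM. The summed levels were 49.6 and 59.8 CPM, and their log2 ratio of -0.27 was -0.81 on plate 1 and 0.22 on plate 2. The median of the cells with a read stood at 95.9 CPM among moLCs and 58.7 CPM among eLCs, the other way round from the share.

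A larger share in eLCs was common to most genes. It was seen for 8 of the 9 members with a read, Tgfbr1 being the exception (25.5% of the 6522 genes had the larger share in moLCs, 11.8% within both plates, as Tgfbr1 did), and for 4 of the 5 members past the share, against 71.6% of the 6522 genes. Within both plates it was seen for 4 of the 5, against 43.2% of the 6522 genes. Itgav had the larger share in eLCs only in the pooled cells. Its share was larger in moLCs on plate 1 (14.9% against 13.8%) and on plate 2 (22.2% against 22%). The median difference in share was -5.87 points over the 5 and -4.12 points over all 6522 genes. Genes with a read per cell were also more numerous in eLCs, and their part in these shares was not tested. Thinned to equal reads, 7 of the 9 had the larger share in eLCs (70.6% of the 6522 genes) and 2, Tgfbr1 and Itgav, in moLCs (26.2%). Of the 9, Tgfbr2, Itgav, Itgb8 and Bmpr1a did not reach the 25% share and are not among the 6522 genes.

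Smad7, the inhibitor that the pathway induces (ENSMUSG00000025880, chr18:75367529-75395935, plus strand), was read in 29 moLCs (28.2%) and 32 eLCs (40.5%), with overlapping intervals of 19.7 to 37.9 and 29.6 to 52.1. The median cell was at 0 in both origins and the highest cell was at 45.04 CPM for moLCs and 100.7 CPM for eLCs. The summed level of 4.37 CPM against 8.63 CPM in eLCs gave a log2 ratio of -0.98, which ranged from -1.17 to -0.80 with each cell left out. It came from plate 2 (5.23 against 12.1 CPM, log2 ratio -1.21). On plate 1 the levels were 3.91 and 3.47 CPM, a log2 ratio of 0.17 whose counting interval of -0.02 to 0.37 included 0.

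The pooled and within-plate ratios are drawn together below for the 7 genes with more than a handful of positive cells.

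**Figure D3:**
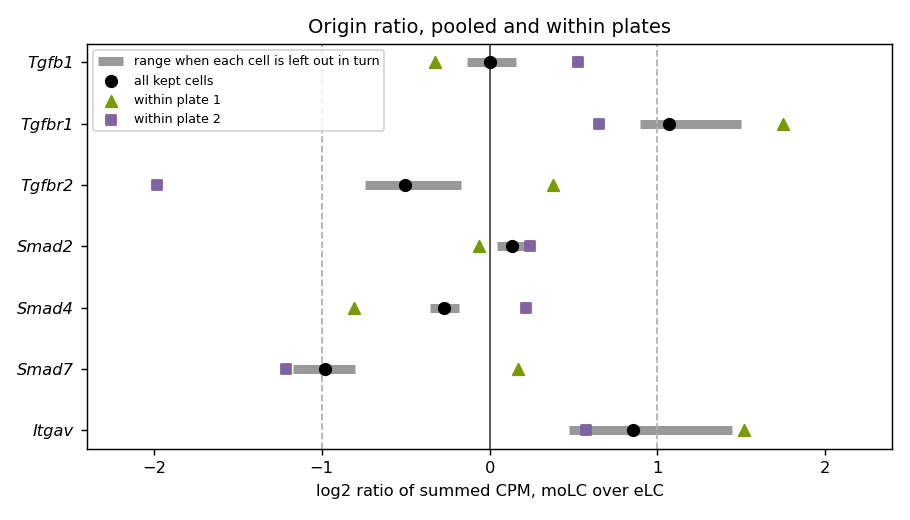
Log2 ratio of summed CPM, moLC over eLC (horizontal axis), for 7 genes, in all kept cells (black circles), within plate 1 (green triangles) and within plate 2 (purple squares), with grey bars for the range when each cell is left out in turn and dashed lines at 2-fold. Tgfbr1 and Itgav lie right of 0 in all 3 measures, and the plates fall on opposite sides of 0 for the other 5 genes.

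Itgav, the alpha-v chain of the integrins that release active TGF-beta (ENSMUSG00000027087, chr2:83724397-83806916, plus strand), was read in 18 moLCs (17.5%) and 15 eLCs (18.99%). The highest cells were at 292 CPM for moLCs and 160 CPM for eLCs, and the median cell was at 0 in both. The summed level of 12.7 CPM in moLCs against 7.01 CPM in eLCs gave a log2 ratio of 0.85, with 1.52 on plate 1 and 0.57 on plate 2. Single cells carried much of it. A moLC with 906 reads held 23.8% of the moLC reads and an eLC with 528 reads held 34.6% of the eLC reads, and with each cell left out the ratio ran from 0.48 to 1.44. Exons of Itgav overlap those of Gm13684, and reads of the overlapping stretch may have been shared between them.

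Itgb8 encodes the beta-8 chain that pairs with alpha-v (ENSMUSG00000025321, chr12:119158022-119238802, minus strand). It was read in 1 moLC, with 2 reads, and in 3 eLCs, with 217, 6 and 8 reads. The summed log2 ratio was -7.32, with a counting interval of -10.37 to -5.45, and without the eLC that held 217 reads it was -3.29. Itgb8 and Itgav were read together in 1 cell, a moLC of plate 1.

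Bmpr1a, the BMP type I receptor (ENSMUSG00000021796, chr14:34410734-34503341, minus strand), was read in 3 cells. They were 1 moLC of plate 2 with 238 reads (59.9 CPM) and 2 eLCs of plate 1 with 74 and 211 reads (17.5 and 50.1 CPM). The summed levels were 0.792 and 1.31 CPM, and the direction turned with the plate. With 3 reads over the group as the floor, Bmpr1a was at least 212-fold lower in moLCs than eLCs on plate 1 and at least 98.7-fold higher on plate 2, each on 1 or 2 cells. Its exons overlap those of the antisense gene Gm17110, and no source states whether counting used the strand.

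The same cells were also compared between plates within an origin. Tgfb1 was higher on plate 2 than on plate 1 by a log2 ratio of 1.11 in moLCs and 0.26 in eLCs. Smad4 was lower on plate 2, with log2 ratios of -0.20 in moLCs and -1.23 in eLCs. Smad7 was higher on plate 2, with 0.42 in moLCs and 1.80 in eLCs. Tgfbr1 had a plate ratio of -0.16 in moLCs and 0.94 in eLCs, and Smad2 of -0.11 and -0.41. None of these 5 genes had a plate difference past 2-fold with 1 sign for both origins, which 1.36% of the 6522 genes did, whereas at least 2-fold in eLCs alone was met by Smad4 and Smad7 (12.1% of the 6522 genes) and in moLCs alone by Tgfb1 (10.5%). The labels do not say whether the plates differ in animal, sort or library preparation.

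Reads of the ligand, its receptors and the Smads fell together about as often as the product of their single shares. Tgfb1 and Tgfbr1 were both read in 70 of 182 cells (38.5%, product 39.7%), in 42 moLCs and 28 eLCs. Tgfbr1 and Tgfbr2 were both read in 14 cells (7.69%, product 8.69%), and 13 of these also had a Tgfb1 read (7.14%, product 6.97%). Smad2 and Smad4 were both read in 57 cells (31.3%, product 28.99%), 28 moLCs (27.2%, product 24.4%) and 29 eLCs (36.7%, product 35.3%). Both receptors with both of these Smads were read in 3 cells (1.65%, product 2.52%). A median cell had a read of 3 of the 10 genes, with a range of 0 to 7, and the mean was 2.91 in moLCs and 3.35 in eLCs (2.95 and 3.27 when thinned). The number of the 10 genes read in a cell went with its number of genes (Spearman rho 0.40 over 182 cells) more than with its number of reads (rho 0.06). With these reads a gene unread in a cell is not shown to be unexpressed.

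Across cells, the 5 genes with the wider shares had weak correlations with one another. The 10 pairs among them had Spearman rhos of CPM between -0.13 (Tgfbr1 with Smad4) and 0.10 (Smad4 with Smad7), with a median of 0.00 over 182 cells. Over all 21264981 pairs of the 6522 genes the median was 0.02 and the 5th and 95th percentiles were -0.12 and 0.16. Pairs within the 4 groups of origin and plate moved in both directions. Tgfb1 and Smad2, for example, had rhos of 0.04 and -0.11 in the moLCs of plates 1 and 2 and of 0.18 and 0.31 in the eLCs. These correlations share library, depth and dropout between their points and are given as a description.

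**Figure D4:**
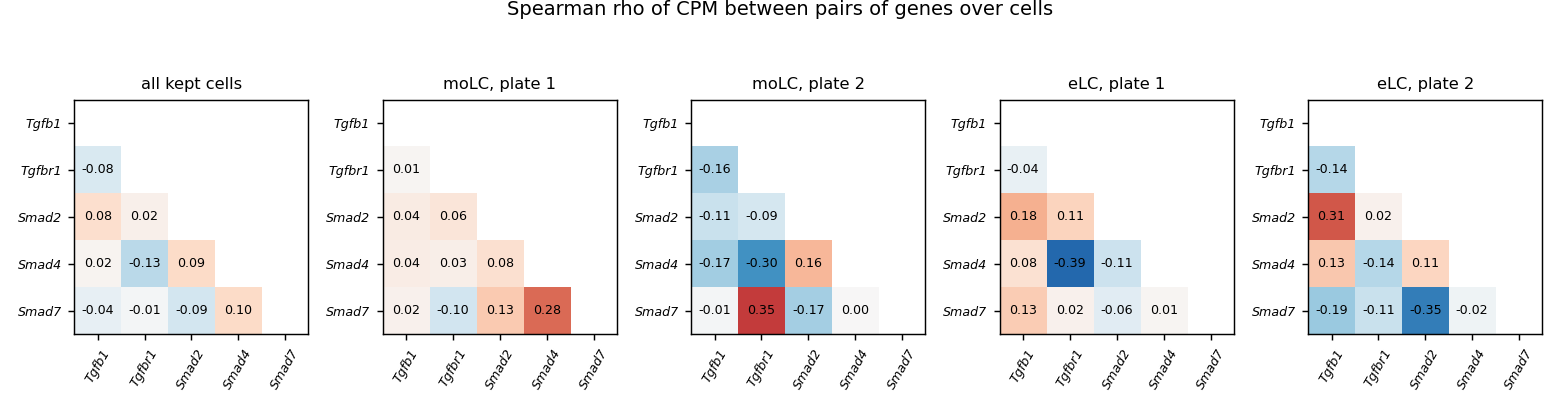
Spearman rho of CPM over cells for each pair of 5 genes, in all 182 kept cells and in each group of origin and plate; red squares are above 0, blue squares below 0, and the value is printed in each. In all cells the 10 values lie between -0.13 and 0.10, and each pair takes both signs among the 4 groups.

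The genes whose pattern over cells was most like that of a member were ranked by the mean of the rhos in the 4 groups. They were picked as the highest of many, so high values follow from the ranking. Over all pairs of the 6522 genes the 95th percentile of this mean was 0.16. Tgfb1 itself had a rho of 0.26 with the number of genes read per cell, whose part here was not tested. For Tgfb1 they were Pkm (mean rho 0.40), which encodes a glycolytic pyruvate kinase, Plxnb2 (0.39), a semaphorin receptor, and Gpi1 (0.37), another enzyme of glycolysis. For Smad2 they were Gorasp2 (0.32), a Golgi stacking protein, Tox4 (0.32) and the phosphatase gene Ptpn12 (0.29). For Smad4 they were Atp6v1b2 (0.33), a subunit of the vacuolar proton pump, Nhlrc3 (0.33) and Mgat1 (0.33), a Golgi glycosyltransferase. Each of these values came from 182 cells, and the within-group rhos behind them were uneven, for Plxnb2 from 0.00 in the moLCs of plate 1 to 0.57 in the eLCs of plate 1. The genes that LCs need TGF-beta to express, where they reached the share, were also set against Tgfb1 over all cells. The rho was -0.21 for Id2 and -0.07 for Cd207. It was 0.07 for Runx3, 0.08 for Spi1, 0.07 for Epcam and 0.09 for Cdh1.

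The rest of the pathway was described from lists of genes grouped by role. Of 13 other ligands of the TGF-beta, activin and BMP families, 8 had no read (Tgfb2, Inha, Inhbb, Mstn, Nodal, Bmp2, Bmp6 and Bmp7), and none reached the 25% share. Inhba, an activin subunit, was read in 3 moLCs and no eLC. Bmp4 was read in 1 moLC and 10 eLCs, with 1.02 and 11.5 CPM, and Tgfb3 in 3 moLCs and 1 eLC. Of 10 other receptors and co-receptors, 7 had a read and 2 reached the share, and none was called. Acvrl1, a type I receptor, stood at 25.6 CPM for moLCs and 22.8 CPM for eLCs, and the activin receptor Acvr2a at 25.8 and 11.6 CPM. Bmpr2, the BMP type II receptor, was at 7.84 and 9.01 CPM and was read in 26.2% and 22.8% of cells. Of 4 other Smads, the BMP-branch Smad1 (20.4 and 21.2 CPM) and Smad5 (2.68 and 6.996 CPM) had reads, and Smad6 and Smad9 had none.

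Of 15 genes of the latent complex and its activation, 10 had a read, 5 reached the share and none was called. Nrros, which anchors latent TGF-beta on myeloid cells, had levels of 146 and 111 CPM and was detected in 51.5% of moLCs and 63.3% of eLCs. Tgfb1 and Nrros were read together in 83 cells (45.6%, product 45.4%). Furin, the protease that cleaves the propeptide, was read with both in 66 cells (36.3%, product 34.2%). These were 30 moLCs (29.1%, product 29.1%) and 36 eLCs (45.6%, product 41.5%). Itgb1, which can pair with alpha-v, was read in 31 of the 33 cells with an Itgav read and in 93.96% of all cells, so that both were read in 17.03% of cells, with a product of their shares of 17.04%. Itgb1 stood at 170 and 251 CPM. Itgb6, the other chain known for activating TGF-beta in epithelium, had no read. The gelatinase gene Mmp9 was read in 63.1% of moLCs (315 CPM) and 93.7% of eLCs (380 CPM).

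**Figure D5:**
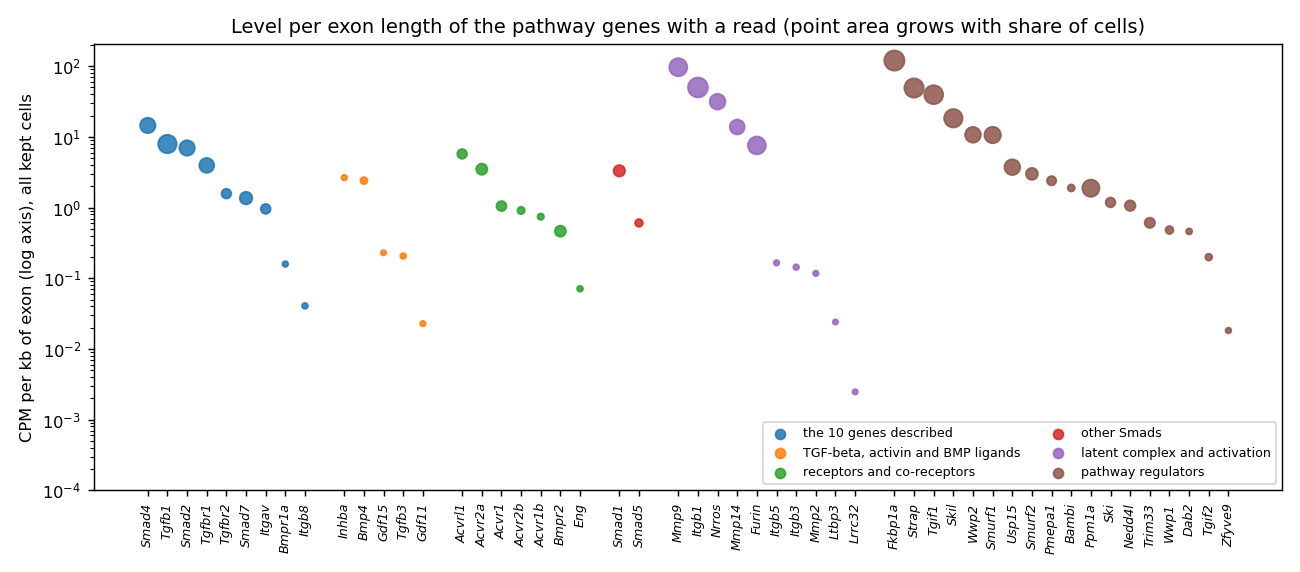
Level of each pathway gene with a read, in CPM per kb of exon over all 182 kept cells (vertical log axis), grouped by role and ordered within a group; the area of a point grows with the share of cells with a read. Smad4, Tgfb1 and Smad2 lie at 14.5, 7.93 and 6.97 CPM per kb, above all other listed ligands and receptors and below Mmp9 at 96.7 CPM per kb.

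All 18 pathway regulators had a read, 9 reached the share and none was called. Fkbp1a, whose product binds the type I receptor, stood at 374 CPM for moLCs and 587 CPM for eLCs, the corepressor gene Tgif1 at 229 and 214 CPM and the Smad corepressor gene Skil at 195 and 154 CPM. Of 12 transcripts known to be induced by TGF-beta or BMP, 10 had a read, 6 reached the share and none was called, and their median log2 ratio was 0.13, with 0.45 on plate 1 and -0.28 on plate 2. Junb stood at 1540 and 1410 CPM and Id2 at 251 and 262 CPM. Klf10, an early TGF-beta response gene, had 296 CPM against 126 CPM in eLCs, and its log2 ratio was 1.88 on plate 1 and 0.27 on plate 2. Of 7 genes that LCs need TGF-beta to express, 6 reached the share, and Cd207 was called, at 26237 CPM against 2159 CPM in eLCs, where the allele carries the toxin receptor, so that allele and origin cannot be told apart for it. Epcam (756 and 807 CPM) and Spi1 (710 and 654 CPM) were not called.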

How the data were processed

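LCs were sorted singly from epidermis as lineage-negative cells positive for CD11c, CD11b, CD24, MHCII and CD326, and cDNA was made with a Takara Smart-Seq kit and Nextera XT libraries. The authors used STAR and the mm10 build for paired reads and deposited raw counts for each gene and cell; the counting tool and annotation are not given in the sources used here. There were no molecular identifiers, so PCR copies count as reads, and 82.8% of values above 0 were even numbers, so both mates of a pair may have been counted. The deposited columns of 8 cells held 9 values that were not whole and were handled like estimated or expected counts and rounded.

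Counts were summed over the cells of each origin and expressed as CPM (counts per 1000000 reads). Ratios with 0 reads used a floor of 3 reads over the group. Intervals were exact Poisson for sums, exact Clopper-Pearson for shares and binomial for ratios, at 95%. The size rule asked for detection in no fewer than 25% of moLCs or of eLCs and a 2-fold difference in all cells and within each plate. For equal depth each cell with at least 2052512 reads, the 10th percentile, was thinned to that number, leaving out 7 moLCs and 12 eLCs. Exon lengths and gene positions came from GENCODE M21 (GRCm38), which held 45495 of the listed names, and promoters from RefSeq. Named genes were the 10 members, the genes of each list past the size rule or among its 3 highest by CPM, and the 3 genes most like Tgfb1, Smad2 and Smad4. Other genes named (Furin, Runx3, Cdh1, Itgb6, Gm13684, Gm17110 and those without a read) were added after their values were seen. So were the cell type markers Cd14, Irf8, Xcr1, Clec9a, Sfn, Krt14, Krt5, Perp, Krt10, Cd2, Cd3g, Lck and Cd3d. The members and lists were chosen with earlier results of these data known. The authors' single-cell rank test takes cells as replicates and was not used. Doublets were not sought, since each well took a single sorted cell. Alternatives were all cells without the mitochondrial filter, each plate alone, thinning, TMM factors, totals without the 50 highest genes, equal weight per cell, other share and fold thresholds, and each cell left out. Python 3.11.15, numpy 2.4.6, pandas 2.3.3, scipy 1.17.1, matplotlib 3.10.9, R 4.3.3 and edgeR 4.0.16 (TMM only) were used. The size rule was also run on simulated counts without plate differences, in which changed genes differed by more than 2-fold. That run does not show how the rule fares on plates that differ or on smaller changes.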

Additional observations from a re-analysis of the deposited data

Results flagged for a closer look

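The 3 moLCs of plate 2 with over 5% of their reads on mitochondrial genes were not part of any comparison, and some of the 10 genes were read in them. Tgfb1 had 212 reads in 2 of these cells, Tgfbr1 had 150 reads in 1 cell and Smad2 had 8 reads in 1 cell, each above the 3 reads that a count of 0 allows. Smad3, Smad4, Smad7, Itgav, Itgb8 and Bmpr1a had no read in them.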

How the results depend on the processing

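With each origin 1 sample, no setting gives a test, and the values show only how the sums move. The number of genes called, 132, was 802 within plate 1 and 849 within plate 2, where both the share and the fold were taken on that plate alone and no second plate was asked for, 1471 without the minimum share, 23 with a minimum share of 50% and 501 at 1.5-fold. Of the 10 members, 0 were called, against 1 within plate 1 (Tgfbr1), 1 within plate 2 (Smad7), 1 without the minimum share (Itgb8) and 1 at 1.5-fold (Tgfbr1). Except at 1.5-fold, these settings also changed which genes were counted. The number of genes behind each count is not given, so the counts cannot be read as shares. The members with a larger share in moLCs, 1 of 9, were 2 within plate 1, 3 within plate 2 and 2 when thinned. The median log2 ratio of the members, 0.00, was -0.062 within plate 1, 0.24 within plate 2, 0.11 with TMM factors (which add 0.10 to every ratio), 0.0717 with totals without the 50 highest genes, -0.27 without the minimum share (all members with a read) and 0.0686 with a minimum share of 50%. Of 81 values of single-gene ratios under alternatives, 49 left the counting interval and 9 changed sign; of 36 differences in share, 2 left the interval, both for Bmpr1a between plates. The cause was not tested. Itgb8, Bmpr1a and Smad3 were read in at most 4 cells, and low expression and reads lost at this depth cannot be told apart for them.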
